A study of Mus musculus with 10 samples.

Results

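Expression of 8 genes of the red cell membrane and its spectrin skeleton was examined in splenic macrophage isolates of wild-type and Fpr2-deficient mice. The genes were taken by symbol: Slc4a1, Rhag, Rhd, Kel, Ank1, Epb42, Sptb and Epb41. All 8 were found among the 55414 genes of the count table, and all 8 were among the 14669 genes with enough reads to be tested. The cells had been bound from spleen by magnetic beads through F4/80, a surface protein of mouse macrophages, and polyadenylated RNA was sequenced. 5 libraries came from C57BL/6N mice (WT) and 5 from animals labelled Fpr2KO, which lack the formyl peptide receptor Fpr2. Neither group had a stated treatment, age or sex, the strain background of the knockout was not given, and the labels did not say whether the replicates of a group were separate animals. P-values therefore measure the spread between these libraries, which may be technical.

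The red cell membrane is a lipid bilayer tied to a flexible protein lattice. Spectrin tetramers form the lattice, ankyrin and protein 4.2 hold it to the anion exchanger band 3, and protein 4.1 joins spectrin to actin and to glycophorin C. The genes are transcribed in erythroid precursors, which in the mouse also mature in the spleen, where macrophages nurse them and clear aged red cells. Several of these proteins also carry blood group antigens.

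Libraries held 15865820 to 19060188 counts. Fpr2 stood at 22.97 ± 6.02 CPM (SD, n = 5; reads of a gene scaled to a fixed library total) in WT and had 0 reads in each of the 5 Fpr2KO libraries, as the labels state. 12 macrophage markers summed to 8156 to 10690 CPM in WT and 8273 to 10570 CPM in Fpr2KO. The isolates also held RNA of other cells. 12 erythroid reference genes, among them globins and erythroid transcription factors, summed to 1653 to 6555 CPM in WT and 4555 to 10710 CPM in Fpr2KO. In bulk RNA, fewer cells of a type and less RNA per cell cannot be told apart.

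Promoter sequence of the 8 genes was searched as a planned description. RefSeq promoters of GRCm38.p6 were matched for 6 of the genes, with 8 start sites, and not for Slc4a1 and Ank1. The 250 bases before each start were searched on both strands for GATA hexamers (AGATAA and AGATAG as well as TGATAA and TGATAG), the letters read by erythroid GATA factors, and for a CACCC box (CCNCNCCC), the type of site read by Klf1. A GATA hexamer lay before at least 1 start of 5 of the 6 genes (83.3%), against 29.7% of 27025 genes in the promoter table. The 5 were Kel, Rhd, Rhag, Epb42 and Epb41. The match of Epb41 overlapped an annotated exon, but it lay outside the annotated span of Epb41 itself. The TGATAA of Kel met an annotated exon only with its last base, and the AGATAA of Kel met none. A match to the CACCC box pattern lay before 2 of the 6 (33.3%), against 48.5%. A match is a description of the letters and not a measured binding site. Stretches of 5 promoters are shown 5′ to 3′ on the gene's strand because they hold these matches, which stand in capitals. The first 4 hold GATA hexamers, read on either strand. Sptb holds matches to the pattern CCNCNCCC, of which neighbours can overlap, and only CCACCCCC there contains the letters CACCC.
Kel (chr6:41704326-41704425, minus strand): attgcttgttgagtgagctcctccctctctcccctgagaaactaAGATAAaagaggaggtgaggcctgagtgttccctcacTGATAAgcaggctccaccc
Rhd (chr4:134864436-134864535, plus strand): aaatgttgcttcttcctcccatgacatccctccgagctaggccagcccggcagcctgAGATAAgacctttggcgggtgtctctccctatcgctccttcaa
Rhag (chr17:40811049-40811148, plus strand): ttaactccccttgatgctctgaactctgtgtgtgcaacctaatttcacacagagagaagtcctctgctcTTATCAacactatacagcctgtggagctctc
Epb42 (chr2:121037073-121037127, minus strand): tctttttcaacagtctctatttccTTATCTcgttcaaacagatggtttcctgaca
Sptb (chr12:76710628-76710677, minus strand): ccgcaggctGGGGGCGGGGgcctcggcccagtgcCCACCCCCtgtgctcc

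The comparison of Fpr2KO with WT asked how loss of the receptor related to these transcripts. Levels of 7 of the 8 genes had estimates 3.11- to 3.81-fold higher in Fpr2KO, and that of Epb41 was 1.40-fold higher. None of the 8 passed an FDR of 0.05 by edgeR's quasi-likelihood test, by DESeq2 or by limma voom, while 0.0682% of all genes tested passed it in edgeR and 0.00682% passed it as higher in Fpr2KO. At an unadjusted p under 0.05 in edgeR, 8 of the 8 were higher in Fpr2KO, against 4.88% of all genes, and 0 were lower, against 4.92%. All 8 estimates were above 0, as were 53.2% of all estimates. Estimates of 7 of the 8 reached a log2 fold change of 1 or more, against 1.50% of all genes. Those 7 genes varied together across libraries (r from 0.96 to 0.999 after group means were subtracted). Counts over the 8 genes are therefore not counts of independent results. The median log2 fold change was 1.80 for the 8 genes and 0.0129 for all genes tested. Without WT replicate 1 the unadjusted count was 3 of 8 (3.51% of all genes were higher), and it was 4 of 8 without WT replicate 2 (3.3%) or without Fpr2KO replicate 1 (3.47%). Without WT 5 the log2 fold change of Rhag was 2.26 and that of Rhd 2.47, against 1.64 and 1.86 with it.

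Slc4a1 (ENSMUSG00000006574, GRCm38 chr11:102348824-102366203, minus strand) encodes band 3, which exchanges chloride for bicarbonate and anchors the skeleton. Of its 31-base sequences, 0% occur in another gene. WT replicates 1 to 5 held 43.0, 21.6, 4.45, 80.2 and 119 CPM, and Fpr2KO replicates 1 to 5 held 314, 178, 195, 127 and 211 CPM. Every Fpr2KO library lay above every WT library, and WT 5 came within a small margin of Fpr2KO 4. The log2 fold change was 1.93 (SE 0.73, edgeR FDR 0.451).

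Rhag (chr17:40811126-40840754, plus strand) encodes the Rh-associated glycoprotein, a channel for ammonia that the Rh complex needs to reach the membrane. WT replicates 1 to 5 held 3.37, 1.13, 0.234, 6.34 and 10.3 CPM, and Fpr2KO replicates held 17.4, 16.9, 13.7, 7.16 and 11.6 CPM. The WT 3 value rested on 4 reads. Fpr2KO 4 lay below WT 5, so the groups overlapped. The log2 fold change was 1.64 (SE 0.71, edgeR FDR 0.503).

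Rhd (chr4:134864536-134896172, plus strand) encodes the Rh protein that forms a complex with Rhag. Its WT levels were 3.31, 1.46, 0.176, 6.97 and 10.8 CPM and its Fpr2KO levels 26.9, 13.8, 16.3, 10 and 15.9 CPM, in replicate order. Kel (chr6:41686330-41704339, minus strand) encodes the Kell blood group protein, a zinc endopeptidase of the surface. Its WT levels were 4.01, 1.46, 0.176, 7.59 and 11.5 CPM and its Fpr2KO levels 26.7, 17.5, 16.4, 9.73 and 16.3 CPM. Both genes had 3 reads in WT 3, and in both only the pair of WT 5 and Fpr2KO 4 crossed between the groups. The log2 fold change was 1.86 for Rhd (SE 0.72, edgeR FDR 0.459) and 1.80 for Kel (SE 0.72, edgeR FDR 0.473).

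Ank1 (chr8:22974844-23150497, plus strand) encodes ankyrin 1, which links beta spectrin to band 3. In replicate order it stood at 6.17, 3.67, 1.64, 13.4 and 21.1 CPM in WT and at 41.0, 25.8, 29.3, 19.7 and 28.2 CPM in Fpr2KO. Epb42 (chr2:121017891-121037072, minus strand) encodes protein 4.2, a transglutaminase relative without enzyme activity that binds band 3 and ankyrin. It stood at 5.60, 2.86, 0.527, 9.88 and 13.7 CPM in WT and at 30.7, 27.0, 24.6, 12.6 and 19.3 CPM in Fpr2KO. In both genes Fpr2KO 4 lay below WT 5, and the other 4 Fpr2KO libraries lay above all WT libraries for Ank1 and for Epb42. The log2 fold change was 1.65 for Ank1 (SE 0.60, edgeR FDR 0.435) and 1.81 for Epb42 (SE 0.64, edgeR FDR 0.422). For Ank1, 6.37% of exon bases lie opposite the antisense gene Gm15816 and 5.46% of 31-base sequences occur in other genes, and the strand setting of the counting was not given in the sources used here.

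Sptb (chr12:76580488-76710547, minus strand) encodes beta spectrin of the red cell lattice. In replicate order it stood at 8.97, 4.70, 1.82, 18.3 and 28.0 CPM in WT and at 63.7, 35.8, 43.0, 28.2 and 43.4 CPM in Fpr2KO. The groups did not overlap, with WT 5 just below Fpr2KO 4. The log2 fold change was 1.79 (SE 0.63, edgeR FDR 0.423).

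Epb41 (chr4:131923413-132075321, minus strand) encodes protein 4.1, which is also made in many nucleated cells. WT replicates 1 to 5 held 165, 172, 156, 221 and 213 CPM and Fpr2KO replicates held 301, 308, 283, 183 and 222 CPM. The groups overlapped, since Fpr2KO 4 lay below WT 4 and WT 5. The log2 fold change was 0.485 (SE 0.15, edgeR FDR 0.306), with a smaller standard error than for the other 7 genes.

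**Figure D1:**
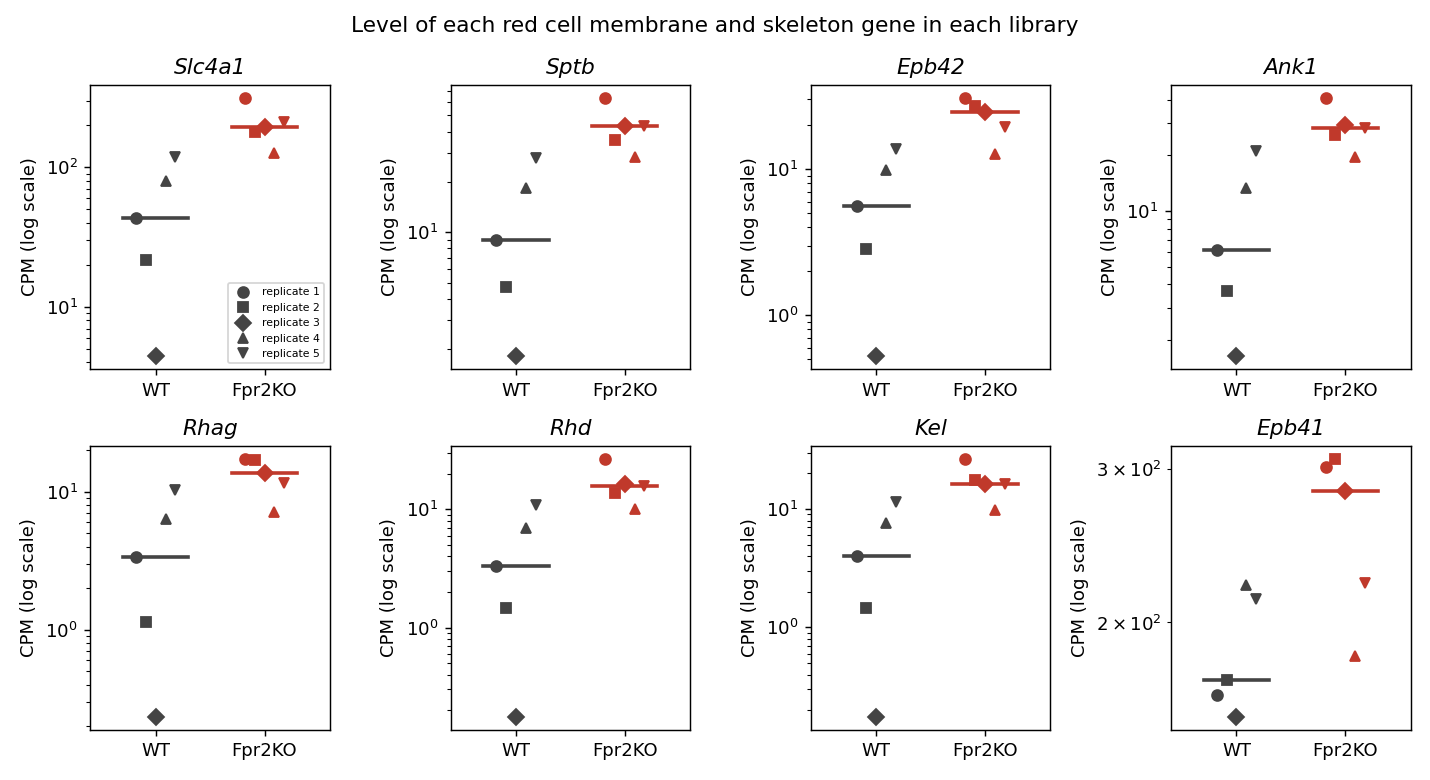
CPM on log axes, each with its own range, of each of the 8 genes in each library; symbols mark replicate numbers, which do not pair libraries, and bars mark the group median. WT 3 was the lowest WT library for all 8 genes and Fpr2KO 4 the lowest Fpr2KO library for all 8; WT 5 was the highest WT library for 7 of them.

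All Fpr2KO libraries lay above all WT libraries for 2 of the 8 genes, Slc4a1 and Sptb, against 0.825% of all genes tested. For 0 of the 8 did all Fpr2KO libraries lie below, against 0.566%. Without WT 5 all Fpr2KO libraries lay above for 7 of 8 (1.83% of all genes), and without Fpr2KO 4 for 8 of 8 (1.39%). Epb41 entered the latter count by a narrow margin, with 222 CPM in Fpr2KO 5 against 221 CPM in WT 4. These 2 omissions were chosen after the values were seen. They took out libraries seen to cross between the groups, so the larger counts follow from the omission. Leaving out any other single library left the count at 2, for example without WT 3, where the share of all genes was 1.01%.

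WT libraries differed more among themselves than Fpr2KO libraries in 7 of the genes. The highest WT level was 12.8 times the lowest for Ank1, 26.8 times for Slc4a1 and 65.3 times for Kel, whereas the same ratio within Fpr2KO was 2.08 to 2.74 for the 7 genes. Epb41 spanned 1.41-fold in WT and 1.68-fold in Fpr2KO. On the log2 CPM scale the WT SD of the 7 genes was 1.43 to 2.12, larger than that of at least 99.6% of genes tested, and the Fpr2KO SD was 0.378 to 0.516. The median SD of all genes was 0.191 in WT and 0.204 in Fpr2KO. The 7 genes had 1 order of WT libraries, 3, 2, 1, 4 and 5 from low to high. In Fpr2KO, 4 was the lowest and 1 the highest for the 7 genes, and the order between them differed from gene to gene. Across the 10 libraries, after the group means were subtracted, pairs of the 7 correlated with r from 0.96 to 0.999, and with Epb41 from 0.594 to 0.674. Within the 5 WT libraries pairs of the 7 had r of at least 0.969, and pairs with Epb41 0.826 to 0.903. Within the 5 Fpr2KO libraries the ranges overlapped, at 0.727 to 0.998 for pairs of the 7 and 0.626 to 0.974 for pairs with Epb41, so Epb41 was not set apart there. These r values are descriptions, and the genes compared were read from the same libraries.

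Per kilobase of exon, Slc4a1 stood highest of the 7 at 11 CPM per kb in WT and 41.9 in Fpr2KO. In order of the WT level, Rhd followed at 2.85 and 10.4 CPM per kb, Rhag at 1.83 and 5.70, and Kel at 1.78 and 6.24. Epb42 stood at 1.20 and 4.21 CPM per kb, Sptb at 1.02 and 3.53, and Ank1 at 0.679 and 2.13. Epb41 stood at 11.6 ± 1.84 CPM per kb in WT and 16.3 ± 3.43 in Fpr2KO (SD, n = 5). Its mean lay near that of Slc4a1 in WT and below it in Fpr2KO. The nearness in WT holds for the means only, since the WT SD of Slc4a1 was 9.46 CPM per kb. Epb41 over Slc4a1 ran from 0.548 in WT 5 to 10.8 in WT 3, and from 0.295 to 0.533 in Fpr2KO. Among Rhd, Rhag, Kel, Epb42, Sptb and Ank1, WT SDs of 0.59 to 2.72 CPM per kb were wider than the gaps between neighbours in this order. These SDs are spread between libraries in which the genes moved together, so they do not measure the order within a library. Rhd stood above Rhag in every library, with Rhag over Rhd at 0.53 to 0.909 in WT and 0.442 to 0.835 in Fpr2KO. The other neighbours in this order were not compared library by library.

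Among the other skeleton genes, 3 had estimates like those of the 7 genes and the rest lay near 0. Of 10 other skeleton and anchoring genes, all tested, 3 were higher in Fpr2KO at an unadjusted p under 0.05 in edgeR. Of all genes, 4.88% were higher at that p. On the list 0 were lower, against 4.92% of all genes, and 0 passed the FDR. The 3 were Add2, which caps actin with its adducin partner, Dmtn, which bundles actin, and Tmod1, which caps the pointed end of actin. Their log2 fold changes were 1.93, 1.81 and 1.61, and they are named because they make up that count. The genes of highest level per kilobase, Actb (cytoplasmic actin), Tpm3 (a tropomyosin) and Stom (stomatin), had log2 fold changes of 0.05, -0.11 and 0.01. The list median was 0.0763, against 0.0129 over all genes.

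Of 20 other membrane, blood group and transport genes, all tested, 8 were higher at an unadjusted p under 0.05 in edgeR, 1 was lower and 0 passed the FDR. The shares over all genes at that p were 4.88% higher and 4.92% lower. The list median was 0.328. Aqp1, the water channel, stood at 12.69 CPM in WT and 41.5 in Fpr2KO, and Ermap, which carries the Scianna blood group, at 8.20 and 25.88 CPM. The highest per kilobase were Cd44, Cd47 and Slc29a1, a hyaluronan receptor, a signal that restrains phagocytosis and a nucleoside transporter. Their log2 fold changes were -0.24, -0.07 and 0.09, and Cd44 was the 1 gene below 0 at an unadjusted p under 0.05 (0.0391, edgeR FDR 0.484). Of 19 paralogues of the 8 genes, 13 were tested, 0 were higher, 1 was lower, and the median log2 fold change was -0.10. Tgm2, Ece1 and Sptan1, the paralogues of highest level per kilobase, had log2 fold changes of -0.13, 0.12 and -0.10.

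**Figure D2:**
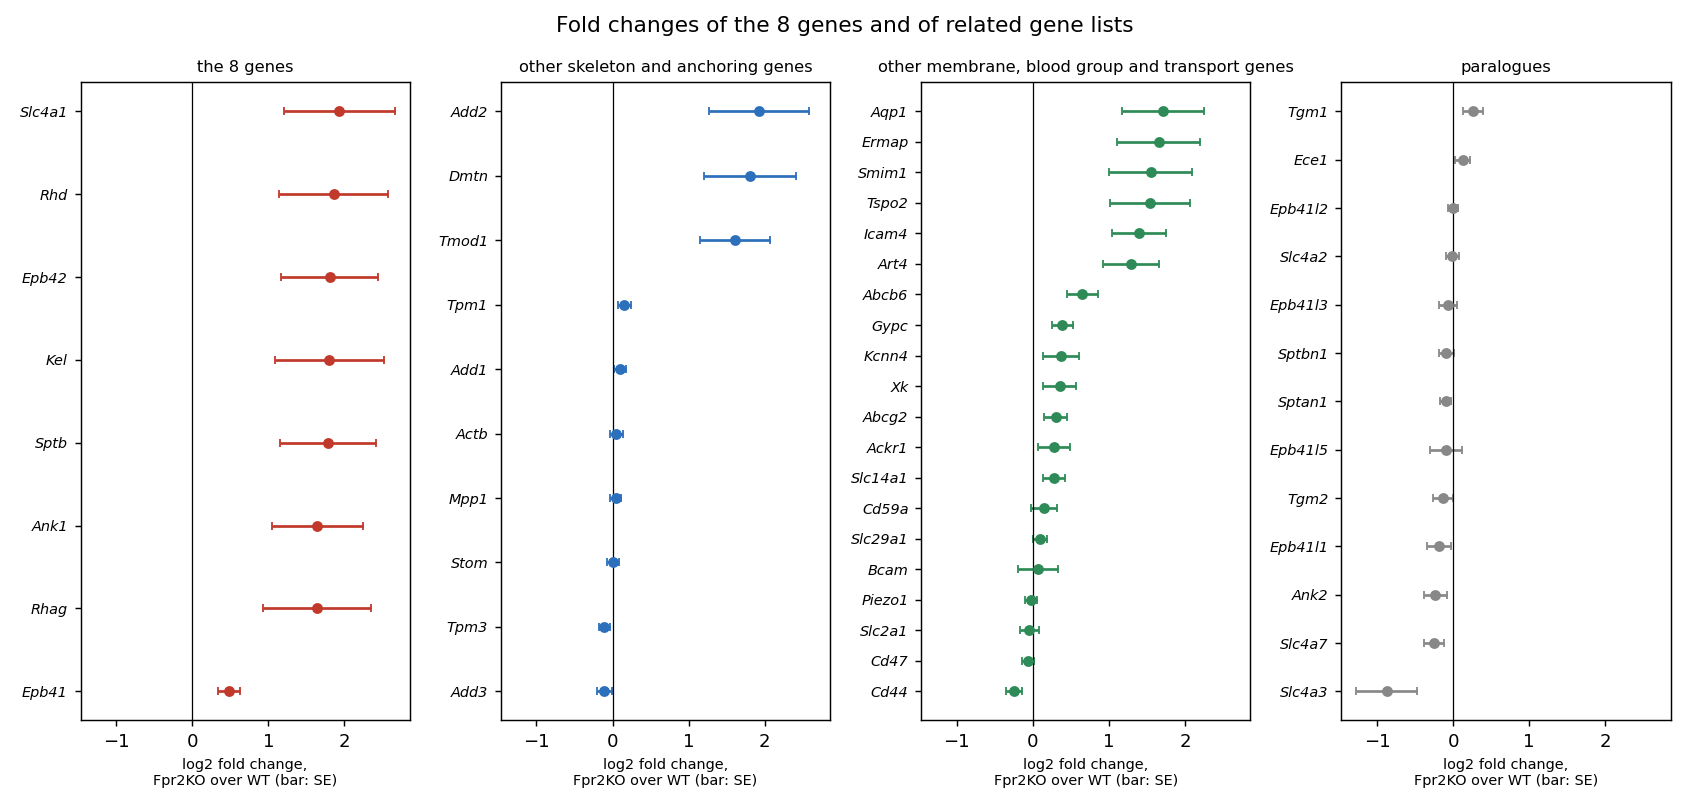
log2 fold change of Fpr2KO over WT with its standard error from edgeR for the 8 genes and for the tested genes of 3 related lists. The 7 genes lie between 1.64 and 1.93 and Epb41 at 0.485, and the tested paralogues lie between -0.87 and 0.26.

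The summed level of the 7 genes averaged 95.49 CPM in WT, with an SD of 83.3, and 346.5 CPM in Fpr2KO, with an SD of 110.3, over 5 libraries each. The erythroid reference genes had estimates in the same direction: 11 of 12 were higher at an unadjusted p under 0.05 in edgeR, against 4.88% of all genes. Of the 12, 0 passed the FDR, and their median log2 fold change was 0.962. The reference was not uniform, and 4 of the 12 reached a log2 fold change of 1 or more. Klf1 had the highest, followed by Car1 at 1.88, Trim10 at 1.78 and Car2 at 1.48. Gfi1b, Epor and Gata1 had the lowest, at 0.35, 0.41 and 0.75. The mean log2 CPM of the 12 reference genes was 1.27 higher in Fpr2KO. The summed reference was mostly globin. Hbb-bs and Hba-a1 averaged 2345 and 1242 CPM in WT, of a mean sum of 4168 CPM, and 4379 and 2382 of 7947 CPM in Fpr2KO. Per 1000 CPM of the reference, the 7 genes summed to 17.6, 8.20, 5.45, 21.8 and 54.9 CPM in WT replicates 1 to 5 and to 48.6, 30.7, 45.6, 47.1 and 50.7 CPM in Fpr2KO. WT 5 lay above all Fpr2KO libraries and the other 4 WT libraries below all of them.

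Each gene was then set against the reference within its library, as log2 CPM minus the mean log2 CPM of the 12 reference genes. With an exact permutation test of the 5 and 5 libraries, two-sided and adjusted over the 8 genes as planned, 0 of 8 passed. The smallest exact p that 5 against 5 libraries allow is 0.00794, with which a gene that reached it alone could not pass after this adjustment. Epb41 reached that smallest p, with all Fpr2KO values below all WT values, so its miss says nothing of stability. Without WT 5, the library seen to overlap, 8 of 8 passed, 7 higher and 1 lower, each at the smallest exact p that design allows, 0.0159. WT 5 was the only WT library whose values overlapped those of Fpr2KO for the 7 higher genes. Its omission therefore fixed this outcome in advance, and the count is no support for a difference. Without WT 5, 0.266% of all genes were higher and 87.3% lower at an unadjusted exact p under 0.05. None of the 8 passed without any other single library. The differences of Fpr2KO minus WT were 1.29 for Slc4a1, 1.34 for Rhd, 1.31 for Kel, 1.08 for Rhag, 1.08 for Epb42, 1.02 for Sptb and 0.839 for Ank1. That of Epb41 was -0.795. Klf1, Car1 and Trim10, within the reference, had edgeR estimates about as large as those of the 7 genes. A rise against the reference mean is therefore not particular to the 7 genes. Without WT 3 the differences were 0.899 for Slc4a1, 0.865 for Rhd, 0.812 for Kel and 0.69 for Rhag. They were 0.711 for Epb42, 0.81 for Sptb, 0.686 for Ank1 and -0.532 for Epb41. Against Gata1 and Klf1 alone the differences were 0.905 for Slc4a1, 0.946 for Rhd, 0.917 for Kel and 0.693 for Rhag. They were 0.689 for Epb42, 0.633 for Sptb, 0.45 for Ank1 and -1.18 for Epb41. Klf1 itself stood at 0 CPM in WT 3 and 0.648 CPM in WT 2, so in WT 3 this reference included a floor value. Unadjusted p-values were looked at after the planned count was seen, and 5 of the 8 were under 0.05, 4 higher and 1 lower. With unadjusted exact p-values 0.136% of all genes were higher and 89.4% were lower on this scale, so the lower value of Epb41 is shared by most genes.

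**Figure D3:**
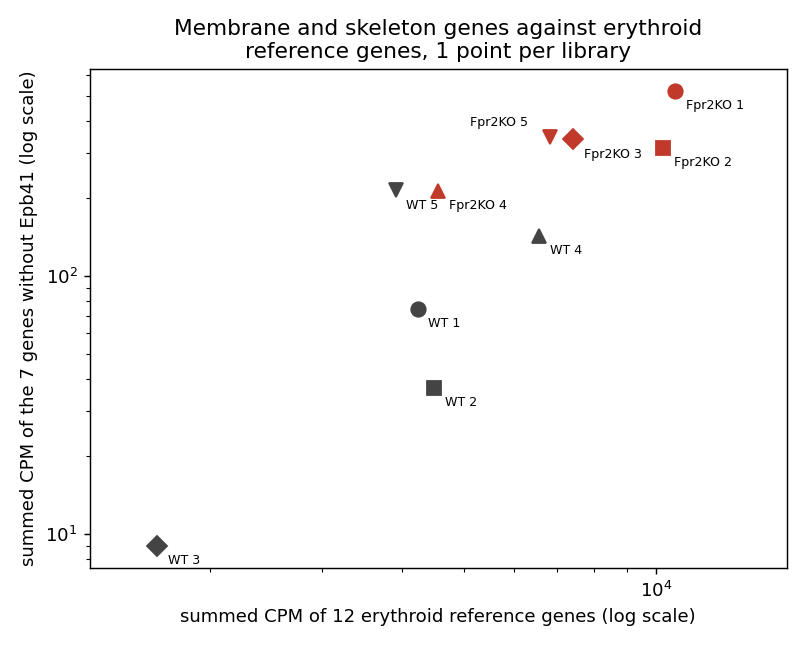
Summed CPM of the 7 genes without Epb41 against summed CPM of 12 erythroid reference genes, both on log axes, 1 point per library. The reference sum is mostly globin. WT 3 lies lowest on both axes at 9.02 and 1653 CPM, and WT 5 has 215 CPM of the 7 genes at 3910 CPM of the reference.

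Marker levels of other cell types in the same libraries stand beside these values. Neutrophil markers summed to 603 to 1047 CPM in WT and 365 to 675 CPM in Fpr2KO, and 5 of 8 tested were lower at an unadjusted p under 0.05 in edgeR. Megakaryocyte and platelet markers summed to 24.9 to 49.2 CPM in WT and 19.9 to 32.0 CPM in Fpr2KO, and 4 of 7 tested were lower. B cell markers summed to 1609 to 2430 CPM and 2182 to 3004 CPM, and 3 of 5 were higher. T cell markers summed to 125 to 164 CPM and 134 to 168 CPM, and 0 of 5 were called. None of these markers passed the FDR in edgeR, and neither did any of the 12 macrophage markers, of which 1 was higher at an unadjusted p under 0.05. Over all genes tested, 4.88% were higher and 4.92% lower at that p. Markers of a list were read from the same libraries, so these counts are not counts of independent results. Mitochondrial counts took 4.83 to 6.09% in WT and 3.22 to 6.04% in Fpr2KO. The part of these cells and of RNA quality in the values of the 8 genes was not tested. Of 5 muscle and kidney markers, tissues that also use Slc4a1, Ank1 or Sptb, Atp6v1b1 and Umod had 0 reads, and the 5 summed to at most 2.93 CPM in a library.

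The genes most like the 8 over the 10 libraries were ranked among 12042 genes by the correlation of group-centred log2 CPM with the mean of the 8 genes. Among the first 10 were Sox6, Car2, Add2, Ermap, Dmtn, Ypel4, Btnl10, Hemgn and Aqp1, with r from 0.981 to 0.996. Sox6, a transcription factor, stood at 2.26 CPM in WT and 7.92 in Fpr2KO. Car2, the carbonic anhydrase that works beside band 3, stood at 40.82 and 113.7 CPM, and Hemgn, an erythroid nuclear protein, at 8.14 and 29.68 CPM. None of these 9 passed the FDR in edgeR.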

How the data were processed

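RNA of 10 libraries was compared, 5 WT and 5 Fpr2KO, grouped by the genotype label. The authors deposited a table of unnormalised whole-number counts, 1 row per gene identifier. The submitters' processing notes name HTSeq 0.10.0, FastQC 0.10.1 and the builds mm10 and GRCm38. For the aligner, annotation release and strand setting, the sources used here give nothing. Symbols, coordinates and exon lengths came from GENCODE M21 (GRCm38), which matched 52081 of 55414 identifiers; unmatched ones held 0.0873 to 0.184% of counts.

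Genes were kept by filterByExpr, scaled by TMM and tested in edgeR 4.0.16 (R 4.3.3) by the robust quasi-likelihood test, with Benjamini-Hochberg adjustment over 14669 genes. The SE of a log2 fold change is its size divided by the root of F. DESeq2 1.42.0, limma voom 3.58.1, other scalings and filters, a replicate block and single omissions were alternatives. Library pairs within groups differed by more than sampling noise (chi-square per degree of freedom 12.4 to 68.2).

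The 8 genes and all lists were chosen with earlier results of these data known. Named genes are the 8, the 3 highest per kilobase of each related list, any list gene past the FDR and 9 of the 10 most alike with a mean of at least 1 CPM. Tmod1 falls outside this rule and was named after its value was seen. The same holds for reference genes named singly: Klf1, Car1, Trim10, Gfi1b, Epor, Gata1, Hbb-bs and Hba-a1. For the reference list the plan had foreseen only summed levels, ranges and counts. 1 of 13 reference symbols was not matched, and 2 genes of the related lists are not reported here and are left out of the list counts. The planned test against the reference adjusts exact permutation p-values over the 8 genes, and 0 of 8 passed. During the work this count was for a time replaced by unadjusted p-values, after the planned outcome had been seen. The planned adjustment was restored, and the unadjusted count of 5 is given only as an added alternative. The split of 7 genes from Epb41, the omissions of WT 5, of Fpr2KO 4 and of WT 3 with WT 5, the ratios between genes and the promoter stretches shown were also chosen after values were seen. log2 CPM used a prior count of 2.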

Additional observations from a re-analysis of the deposited data

Results flagged for a closer look

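The level of Epb41 relative to the erythroid reference genes was 3.65 on the log2 scale in WT 3, apart from 2.12 to 2.45 in the other 4 WT libraries. WT 3 was also the library with the lowest reference level, a mean log2 CPM of 3.636. This was 1 of 32 groups checked, and chance alone sets apart about 1 in 20 groups.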

How the results depend on the processing

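In every alternative run, 0 of the 8 genes passed the FDR and all 8 log2 fold changes were above 0. With limma voom those of the 7 genes were 2.12 to 2.71, and without WT 3 they were 1.33 to 1.63. The lowest FDR of any of them was 0.105 (Epb41, DESeq2). Over all genes, 10 passed in edgeR, 62 with no filter on low counts, 185 with DESeq2 and 8 to 51 when 1 library was left out, with 51 without WT 5 and 26 without WT 4 or Fpr2KO 2. Without both WT 3 and WT 5, chosen after seeing the data, 8 passed. The cause of these shifts was not tested. With a replicate block 64 passed and 0 of the 8 genes did, and 3 of 8 were higher at an unadjusted p under 0.05, against 5.62% of all genes. Same-numbered libraries correlated with r from -0.239 to 0.291, and 4 of 10 libraries correlated best with their own number, so the numbers were not taken as pairs. Against the erythroid reference 0 of 8 passed as planned, and 0 to 8 when 1 library was left out. The count of 8 came only without WT 5, the library that overlapped, and was fixed by that omission. Without the adjustment 5 passed, an alternative added after the planned count was seen. The unadjusted count was itself 1 to 8 with 1 library left out. Depth limits Rhag, Rhd and Kel in WT 3, at 3 or 4 reads. It also limits the reference of Gata1 and Klf1 alone, since Klf1 had 0 CPM in WT 3.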

Other observations

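Ratios between partner genes, as CPM per kilobase and chosen after values were seen, are given as descriptions. Ank1 over Slc4a1 was 0.0742 ± 0.0333 in WT and 0.0517 ± 0.00385 in Fpr2KO (SD, n = 5), and the highest WT ratio, 0.133, was that of WT 3. Rhag over Rhd was 0.681 ± 0.141 in WT and 0.566 ± 0.157 in Fpr2KO, ranges that overlap.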
